A study of Mus musculus with 9 samples.

Results

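The replication licensing genes are the 10 genes Mcm2, Mcm3, Mcm4, Mcm5, Mcm6, Mcm7, Mcm10, Cdt1, Cdc6 and Cdc45. They were found by symbol in a table of 31167 genes, where each had 1 row, and all 10 passed a filter of at least 0.5 FPKM on the mean of 9 libraries, as did 13985 genes in all. FPKM counts the fragments of a gene relative to the length of its exons and to the size of the library. Levels of different genes can be compared only as far as the exon length used is that of the transcripts expressed. A cell licenses its replication origins in late mitosis and G1. The origin recognition complex, Cdc6 and Cdt1 load rings of the Mcm2 to Mcm7 proteins onto DNA, and in S phase Cdc45 and the GINS complex join each ring to form the active helicase, with Mcm10 needed for its start. Most of these genes are known E2F targets, low in resting cells and high in cycling cells, and tubular epithelial cells re-enter the cycle after injury.

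RNA was sequenced from mouse primary renal tubular epithelial cells (C57BL/6) in 3 groups of 3 libraries: Sham, H/R and EGR1OV. H/R cells were kept for 6 h without glucose at 1.0% oxygen and then for 18 h in complete medium with normal oxygen, which models ischemia and reperfusion. EGR1OV cells were transfected with an Egr1 overexpression plasmid; the study names a CMV promoter for the Egr1 plasmid it used in cells, a promoter that is active in most cell types and does not restrict expression to tubule cells. The labels attach hypoxia to H/R only, and they name no control plasmid for Sham or H/R, so transfection itself and Egr1 cannot be told apart in EGR1OV. Nothing states that replicates were separate cultures, and p-values then measure the spread between these libraries, which may be technical.

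Depth recovered from the values was 16183611 to 18384007 reads per library. Egr1, the overexpressed gene, ran from 6.09 to 6.91 FPKM in the Sham libraries, from 7.48 to 8.57 in those of H/R and from 40.1 to 45.7 in those of EGR1OV. Of 14 tubule markers in the table, 5 were under 0.5 FPKM, among them the segment transporters Slc34a1, Slc12a1 and Slc12a3, and Umod was at 0 in every library, whereas Pax8, Epcam, Cdh1, Krt8 and Krt18 were expressed. The tubule markers summed to 1928 to 1965 FPKM in Sham libraries, 1784 to 1863 in H/R libraries and 1270 to 1377 in EGR1OV libraries. The 10 leukocyte markers in the table, none of them at 0 in every library, summed to 147.7 to 152.1 FPKM in Sham libraries, 124.2 to 133.3 in H/R libraries and 23.5 to 28.8 in EGR1OV libraries. In the same order of groups, 6 endothelial markers summed to 10.2 to 10.5, 10.6 to 11.1 and 7.34 to 7.94 FPKM, and 7 fibroblast markers to 32.8 to 34.5, 39.3 to 40.6 and 37.9 to 42.9 FPKM. In 4 libraries (Sham replicate 3, H/R replicates 2 and 3, and EGR1OV replicate 3) the small RNA gene Gm23935 stood at 9378 to 21700 FPKM, against 1494 to 4188 in the other 5. Results are given with and without these libraries, a choice made after the data were examined.

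All 10 genes are protein coding, and their positions in the table are those of GENCODE M21 on GRCm38. Of the helicase subunits, Mcm2 (ENSMUSG00000002870) lies on chromosome 6 from 88883474 to 88898780, Mcm3 (ENSMUSG00000041859) on 1 from 20802968 to 20820312, Mcm4 (ENSMUSG00000022673) on 16 from 15623897 to 15637400, Mcm5 (ENSMUSG00000005410) on 8 from 75109569 to 75128439, Mcm6 (ENSMUSG00000026355) on 1 from 128331590 to 128359664 and Mcm7 (ENSMUSG00000029730) on 5 from 138164583 to 138172422, so they do not form a cluster. Of the loading factors, Cdt1 (ENSMUSG00000006585) lies on chromosome 8 from 122568015 to 122573554 and Cdc6 (ENSMUSG00000017499) on 11 from 98907801 to 98923940. Of the activation factors, Cdc45 (ENSMUSG00000000028) lies on chromosome 16 from 18780447 to 18811987 and Mcm10 (ENSMUSG00000026669) on 2 from 4989714 to 5012791. Mcm7 overlaps Cops6 and Ap4m1 on the opposite strand and hosts Mir25, Mir93 and Mir106b, Cdc45 overlaps Ufd1 on the opposite strand, and Cdt1 overlaps Gm20388 on its own strand. How the counting treated strand is not given in the sources used here, so for these 3 genes reads of the overlapping gene cannot be told apart.

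Start site windows were searched for the E2F site, since E2F factors are the known regulators of these genes, and for the EGR site, since Egr1 was the overexpressed factor. Windows held 250 bases before and 50 bases after a RefSeq transcript start (GRCm38.p6). Such a window was at hand for 9 of the 10 genes, Mcm4 being the exception, and Mcm7 had 2. The E2F letters searched on both strands were TTTCCCGC, TTTGGCGC, TTTCGCGC and TTTGCCGC. At least 1 of them was in 6 of the 9 genes (Cdc6, Cdt1, Mcm3, Mcm5, Mcm6 and Mcm7), whereas 2.26% of all 32851 windows held a match. In Mcm7 the matches were in 1 of its windows. Distances are from the RefSeq starts, which can differ from the gene bounds given above. The Cdc6 match and the upstream match of Mcm7 lie inside those bounds. The matches are shown here in capitals, each with up to 7 bases on either side, on the strand of the gene.

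Mcm5, chr8:75109349-75109374, plus strand, starting 153 bases before the transcript start: caagaacTTTCGCGCCAAAacgtcca

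Mcm6, chr1:128359797-128359822, minus strand, 110 bases before: gtatgctTTTGGCGCGAAAagtgcgt

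Mcm6, chr1:128359738-128359759, minus strand, 47 bases before: ggacgggTTTGGCGCgaagtag

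Cdc6, chr11:98908006-98908027, plus strand, 138 bases before: gtggagaGCGGGAAAtcgcctg

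Mcm7, chr5:138172034-138172055, minus strand, 165 bases before: tcgaaccGCGGGAAAcagggtg

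Mcm7, chr5:138171853-138171874, minus strand, at base 17 of the transcript: gacgacgTTTCGCGCcaatttc

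Mcm3, chr1:20820279-20820300, minus strand, at base 20 of the transcript: ttccgtgGCGGGAAAacttggg

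Mcm3, chr1:20820263-20820281, minus strand, at base 39 of the transcript: gggaagtTTTGGCGCcaag

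Cdt1, chr8:122568040-122568061, plus strand, at base 33 of the transcript: ctaccttTTTGGCGCcatggcg

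In Mcm5 and in the upstream match of Mcm6 the capitals run for 12 bases, because 2 matches on opposite strands overlap. Mcm5 and Mcm6 are shown at full upstream length because Mcm5 had the lowest ratio of H/R to Sham and Mcm6 the highest ratio of EGR1OV to Sham. The first sequence is the 250 bases before the start of Mcm5 and the second those before the start of Mcm6, with E2F matches in capitals.

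Mcm5, chr8:75109259-75109508, plus strand: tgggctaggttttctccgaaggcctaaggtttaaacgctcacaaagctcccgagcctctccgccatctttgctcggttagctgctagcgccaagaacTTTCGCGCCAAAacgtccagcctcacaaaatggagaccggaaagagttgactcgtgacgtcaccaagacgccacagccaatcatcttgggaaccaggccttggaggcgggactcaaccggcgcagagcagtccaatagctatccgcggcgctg

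Mcm6, chr1:128359706-128359955, minus strand: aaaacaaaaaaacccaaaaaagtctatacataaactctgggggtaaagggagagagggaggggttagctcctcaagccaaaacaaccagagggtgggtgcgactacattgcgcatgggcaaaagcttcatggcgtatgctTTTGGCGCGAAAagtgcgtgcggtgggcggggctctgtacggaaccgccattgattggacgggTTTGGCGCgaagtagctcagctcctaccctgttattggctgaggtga

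The EGR letters GCGTGGGCG and GCGGGGGCG were in none of the 9 genes' windows and in 3.47% of all windows, which says only that these letters are not within these 300 bases. CCAAT, the letters bound by NF-Y, was in 7 of 9 genes and in 37.4% of all windows; in Mcm7 a CCAAT shares its first base with the end of the E2F match at base 17. TTTGAA or TTCGAA, the letters of the CHR element of G2 and M phase genes, was in 3 of 9 genes (Cdc45, Mcm2 and Mcm7) and in 19.2% of all windows. A match is a description of sequence, and binding was not measured in these files.

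The levels of the 6 helicase subunits are given first, by library, in FPKM with replicates 1 to 3 in order. Mcm2, a subunit that also binds histones H3 and H4, was at 8.06, 8.04 and 7.44 in Sham, 5.07, 5.34 and 5.50 in H/R, and 8.08, 8.90 and 8.49 in EGR1OV. Mcm5, which lies next to Mcm2 in the ring at the gate where DNA enters, was at 7.89, 7.47 and 7.10 in Sham, 4.61, 4.84 and 4.63 in H/R, and 8.94, 8.64 and 10.1 in EGR1OV. In both genes the 3 groups did not overlap: H/R was lowest and EGR1OV highest, although for Mcm2 the lowest EGR1OV library was barely above the highest Sham library. Mcm3, which pairs with Mcm5, was at 9.50, 10.6 and 10.3 in Sham, 6.88, 7.36 and 7.23 in H/R, and 12.1, 10.6 and 12.3 in EGR1OV. H/R was again lowest, and EGR1OV was above Sham without overlap, although its replicate 2 lay within 0.1 FPKM of Sham replicate 2.

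Mcm4, Mcm6 and Mcm7 make up the other side of the ring. Mcm4 was at 14.4, 16.3 and 16.8 in Sham, 12.7, 12.5 and 12.0 in H/R, and 16.1, 15.8 and 17.1 in EGR1OV. Mcm6 was at 14.5, 15.8 and 16.1 in Sham, 13.6, 12.8 and 13.1 in H/R, and 25.6, 25.5 and 25.7 in EGR1OV. Mcm7 was at 16.9, 16.8 and 17.4 in Sham, 13.9, 13.6 and 14.1 in H/R, and 17.9, 17.3 and 18.8 in EGR1OV. H/R was below Sham without overlap in all 3 genes. EGR1OV overlapped Sham for Mcm4 and Mcm7 but stood far above it for Mcm6.

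The loading factors and the activation factors were at lower levels. Cdt1, which brings the helicase to the origin and is inhibited by geminin, was at 3.60, 3.25 and 3.92 FPKM in Sham, 2.32, 2.32 and 2.78 in H/R, and 4.62, 5.09 and 4.73 in EGR1OV. Cdc6, the ATPase that works with it, was at 1.63, 1.72 and 2.28 in Sham, 1.32, 1.28 and 1.18 in H/R, and 1.85, 1.78 and 1.60 in EGR1OV. For Cdt1 the 3 groups were apart, whereas for Cdc6 the EGR1OV libraries fell within the span of Sham or just below it. Cdc45, the partner that turns the loaded ring into a helicase, was at 3.29, 3.46 and 4.47 in Sham, 3.05, 3.26 and 2.63 in H/R, and 4.44, 3.72 and 4.54 in EGR1OV. Mcm10 was at 1.03, 0.962 and 1.27 in Sham, 0.892, 0.750 and 0.755 in H/R, and 1.49, 1.58 and 1.75 in EGR1OV. The Mcm10 groups were all apart. Sham replicate 3 was the highest Sham library for Cdt1, Cdc6, Cdc45 and Mcm10, and the Cdc45 groups Sham and H/R were apart by less than 0.1 FPKM.

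**Figure D1:**
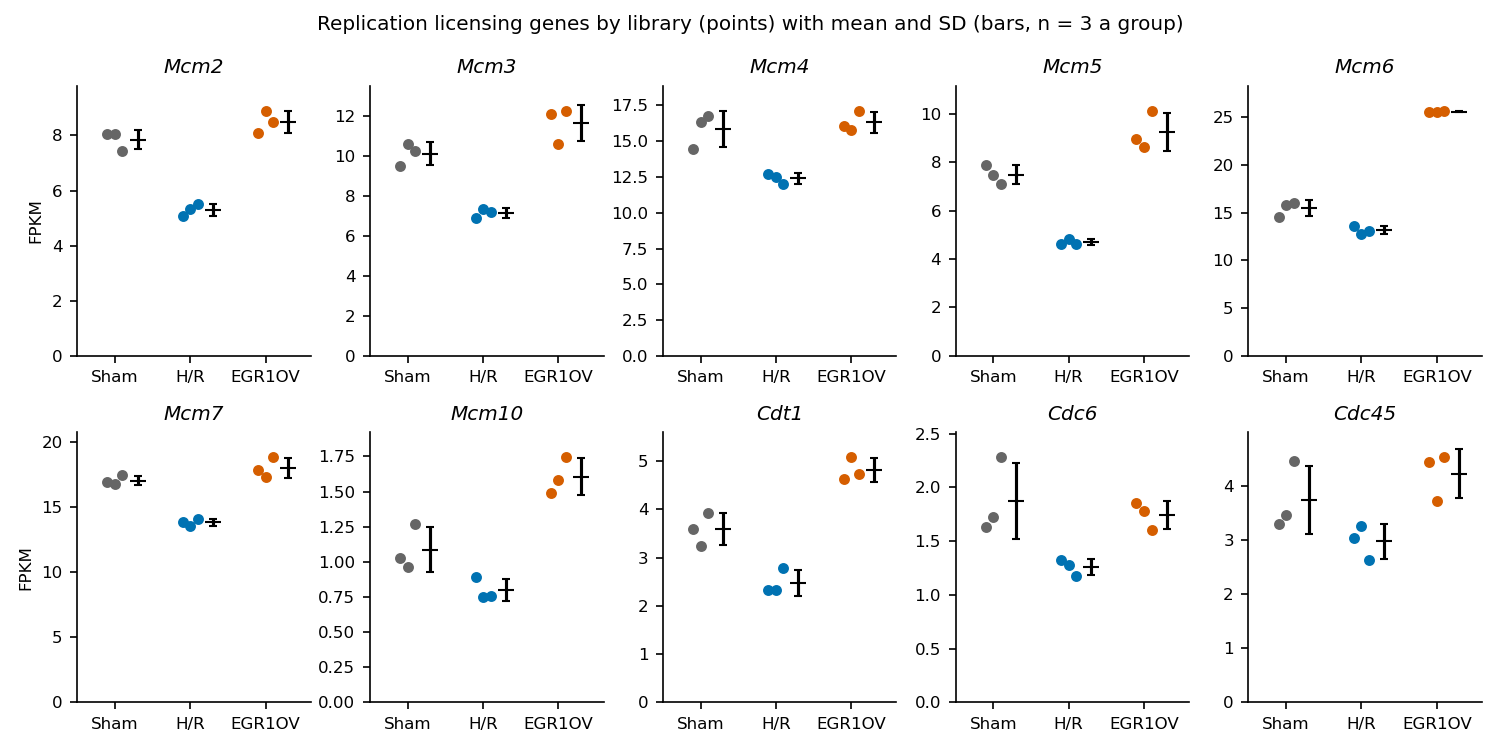
Level of each replication licensing gene in FPKM (vertical axis from 0, a scale for each gene) in the 9 libraries by group. Points are libraries, and the bars beside them give the mean and SD (n = 3); the H/R points lie below the Sham points in all 10 genes, and the EGR1OV points of Mcm6 stand at 25.5 to 25.7 FPKM.

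In Sham the order of mean levels was Mcm7 (17.0 ± 0.344 FPKM, SD, n = 3), Mcm4 (15.8 ± 1.24), Mcm6 (15.5 ± 0.819), Mcm3 (10.1 ± 0.569), Mcm2 (7.85 ± 0.354), Mcm5 (7.49 ± 0.395), Cdc45 (3.74 ± 0.633), Cdt1 (3.59 ± 0.333), Cdc6 (1.88 ± 0.354) and Mcm10 (1.09 ± 0.161). The Sham libraries of Mcm7 and Mcm4, of Mcm4 and Mcm6, of Mcm2 and Mcm5, and of Cdc45 and Cdt1 overlapped. Within every Sham library Mcm7 was nonetheless above Mcm4, and Mcm2 above Mcm5. The order of Mcm4 and Mcm6, and that of Cdc45 and Cdt1, changed between libraries. Differences between genes were not tested. The helicase subunits, which enter the ring in equal numbers as proteins, thus differed in FPKM, and every subunit was above every loading or activation factor. This order depends on the exon lengths used, which took in all annotated exons of a gene. Mcm2 had 854 to 975 reads in the Sham libraries over 6956 bases, and Mcm3 586 to 694 over 3752 bases. Which transcripts of each gene were expressed was not tested. The reads behind a value ran from 103 for Mcm10 in H/R to 2018 for Mcm6 in EGR1OV, so the values of Mcm10, Cdt1, Cdc6 and Cdc45 carry the larger counting error. The reads recovered for Cdc45 were off whole numbers by up to 0.468, against at most 0.004 for the other 9 genes.

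Hypoxia and reoxygenation was compared with Sham to ask how the licensing genes stand at the end of 18 h of reoxygenation. Transcripts of 7 of the 10 genes were called lower: Mcm2, Mcm3, Mcm4, Mcm5 and Mcm7 of the helicase and both loading factors, Cdt1 and Cdc6. Calls needed a limma adjusted p under 0.05 (log2(FPKM + 1), Benjamini-Hochberg over 13985 genes) together with a 1.2-fold change. Of all genes tested, 2.65% were called lower. With median-ratio scaling or quantile normalization 5 of the 10 were called lower, Mcm7 and Cdc6 being the genes lost. Without the fold requirement 8 of the 10 genes were lower, against 7.54% of all genes. H/R was below Sham without overlap in 10 of 10 genes and in 21.8% of all genes, and the median change on the log2(FPKM + 1) scale was -0.34 for the 10 genes and -0.03 for all genes. In bulk RNA, fewer cells expressing a gene and less of its RNA per cell cannot be told apart.

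The largest decrease of the 10 was that of Mcm5, whose mean in H/R was 0.627 of that in Sham, 4.69 ± 0.124 against 7.49 ± 0.395 FPKM (SD, n = 3). On the log2(FPKM + 1) scale, used for all changes given here, Mcm5 changed by -0.58 (SE 0.0590, limma adjusted p = 0.000789). Mcm2 stood at 0.676 of Sham, a change of -0.49 (SE 0.0485, limma adjusted p = 0.000687), and Mcm3 at 0.707 of Sham, a change of -0.45 (SE 0.0595, limma adjusted p = 0.00264). These are the 3 subunits on the gate side of the ring. Mcm4 and Mcm7 stood at 0.782 and 0.812 of Sham, with changes of -0.33 (limma adjusted p = 0.00760) and -0.28 (limma adjusted p = 0.00230). Mcm6 had the highest ratio of the 10 genes, 0.851, and its change of -0.22 (SE 0.0399, limma adjusted p = 0.0110) did not reach the fold threshold.

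Of the loading factors, Cdt1 stood at 0.690 of Sham, a change of -0.40 (SE 0.0727, limma adjusted p = 0.0102). Cdc6 stood at 0.671 of Sham, a change of -0.34 (SE 0.0886, limma adjusted p = 0.0389). The Cdc6 call was the least firm: it was lost in 14 of 19 alternatives, with adjusted p-values of 0.0505 to 0.416 in those, and on leaving out any library except Sham replicate 1 and EGR1OV replicate 3. The call of Mcm7 was lost under median-ratio scaling (-0.24) and quantile normalization (-0.25), where the change fell short of the fold threshold. Of the activation factors, Mcm10 was at 0.736 of Sham (change -0.21, limma adjusted p = 0.117) and Cdc45 at 0.796 (change -0.25, limma adjusted p = 0.159), and neither passed the test. Without Sham replicate 3 the Cdc45 change was -0.14, and with voom on recovered reads, whose scale has no added 1, Mcm10 was called lower at -0.44 (adjusted p = 0.0246). For each of the 10 genes the exact two-sided permutation p was 0.1, the smallest that 3 against 3 libraries allow.

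Other measurements moved with this comparison. The libraries of high Gm23935 were 1 of 3 in Sham and 2 of 3 in H/R; without them, when H/R is left with 1 library that is assumed to vary like the others, the changes ran from -0.63 to -0.08, all 10 still lower, and limma called 0 of the 10 genes, with 6 at an unadjusted p under 0.05, and 9 of all genes. Of 8 tested leukocyte markers, 2 were called lower in H/R (Adgre1 and Lyz2), where 2.65% of all genes were. The other 6 were not called, although C1qa changed by -0.23 (limma adjusted p = 0.0168), short of the fold threshold. The part of these markers in the result was not tested.

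EGR1OV was compared with Sham to ask how the same genes stand after transfection with the Egr1 plasmid, where transfection and Egr1 cannot be told apart. Mcm6 rose, and it was the only licensing gene of the 10 called (1.3-fold or more, limma adjusted p under 0.05), a count near the 9.87% of all genes called higher. Its mean was 25.6 ± 0.0927 FPKM in EGR1OV against 15.5 ± 0.819 in Sham (SD, n = 3), 1.65 times the Sham level, a change of 0.69 (SE 0.0399, limma adjusted p = 8.1e-07). Without the fold requirement 5 of 10 genes were higher, against 26.1% of all genes. In 6 of 10 genes EGR1OV was above Sham without overlap, against 31% of all genes, and the median change was 0.17 for the 10 genes and 0.02 for all genes.

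Besides Mcm6, Mcm10 and Cdt1 had the highest ratios. Mcm10 was at 1.48 times Sham, a change of 0.32 (SE 0.0785, limma adjusted p = 0.00817), and Cdt1 at 1.34 times Sham, a change of 0.34 (SE 0.0727, limma adjusted p = 0.00399). Both are at low levels, where the added 1 understates a change; with 0.1 added instead, both were called, at 0.53 and 0.42. Mcm5 was at 1.23 times Sham (change 0.27, limma adjusted p = 0.00473) and Mcm3 at 1.15 times (change 0.19, limma adjusted p = 0.0292), short of the fold threshold.

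The remaining 5 genes did not pass at 0.05. Their changes, with 95% intervals, were 0.10 (-0.0083 to 0.21) for Mcm2, 0.08 (-0.0046 to 0.16) for Mcm7, 0.04 (-0.084 to 0.17) for Mcm4, 0.15 (-0.089 to 0.38) for Cdc45 and -0.06 (-0.26 to 0.14) for Cdc6. The signs of Mcm2, Mcm4 and Mcm7 turned under quantile normalization (-0.0057, -0.063 and -0.022), that of Mcm4 without Sham replicate 1 (-0.019), and that of Cdc6 without Sham replicate 3 (0.036). In EGR1OV 8 of 8 tested leukocyte markers were called lower, where 6.51% of all genes were, and of 9 tested tubule markers 3 were called lower (Lrp2, Krt8 and Krt18) and 1 higher (Epcam); the part of these shifts in the changes of the licensing genes was not tested.

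**Figure D2:**
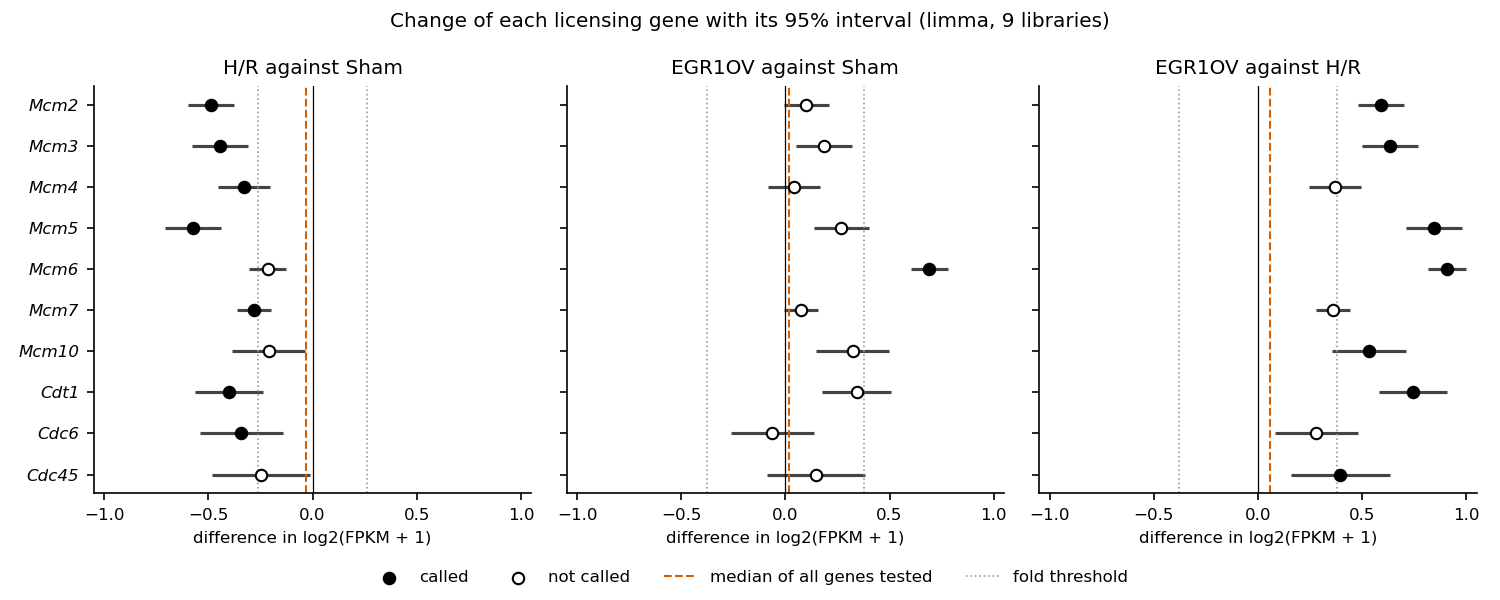
Change of each replication licensing gene on the log2(FPKM + 1) scale (horizontal axis) in the 3 comparisons, with the 95% interval from limma. Filled points were called, dotted lines mark the fold thresholds and the dashed line is the median of all genes tested; all 10 genes lie below 0 in H/R against Sham, with 7 called, and only Mcm6 is called in EGR1OV against Sham.

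EGR1OV and H/R were also compared with each other, at the 1.3-fold threshold. Transcripts of 7 of the 10 genes were called higher in EGR1OV, where 11.9% of all genes were called higher. The 7 were Mcm6 (1.94 times H/R, change 0.91), Mcm5 (1.97 times, 0.84), Cdt1 (1.94 times, 0.74), Mcm3 (1.63 times, 0.63), Mcm2 (1.60 times, 0.59), Mcm10 (2.01 times, 0.53) and Cdc45 (1.42 times, 0.40), with limma adjusted p-values from 1.1e-07 for Mcm6 to 0.0111 for Cdc45. Mcm4 (0.37), Mcm7 (0.36) and Cdc6 (0.28) were higher at adjusted p-values of 0.000446, 3.1e-05 and 0.0253 by limma but fell short of the fold threshold. Without the fold requirement all 10 were higher, against 32% of all genes, and in 10 of 10 the groups did not overlap, against 36.6% of all genes. The median change was 0.56 for the 10 genes and 0.05 for all genes. The Cdc45 call was lost without H/R replicate 3 (0.33), without EGR1OV replicate 1 (0.37) and without EGR1OV replicate 3 (0.35), and also under median-ratio scaling (0.34), quantile normalization (0.28) and without the libraries of high Gm23935 (0.33). Without those libraries all 10 were still higher, 6 were called and the median change was 0.53. This comparison shares its libraries with the other two and adds no independent evidence to them.

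The make-up of the helicase transcripts was then examined, a choice made after the values were seen, and it is given with no test. The 6 subunits summed to 71.3 to 75.1 FPKM in Sham, 56.4 to 56.8 in H/R and 86.8 to 92.6 in EGR1OV, without overlap between groups. The share of Mcm6 in this sum was 20.4 to 21.4% in Sham, 22.7 to 24.0% in H/R and 27.8 to 29.4% in EGR1OV. The shares of Mcm4 and Mcm7 were lower in EGR1OV than in Sham, at 18.1 to 18.5% against 20.2 to 22.4% and at 20.0 to 20.3% against 22.3 to 23.7%. A share falls when another part of the sum rises, and their levels were not lower. Mean levels in EGR1OV and Sham were 16.3 and 15.8 FPKM for Mcm4 and 18.0 and 17.0 FPKM for Mcm7. The share of Mcm5 was 9.46 to 11.1% in Sham, 8.13 to 8.57% in H/R and 9.96 to 10.9% in EGR1OV. In both treatments, then, Mcm6 made up more of the sum than in Sham, while its own level went below Sham in H/R and above it in EGR1OV.

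**Figure D3:**
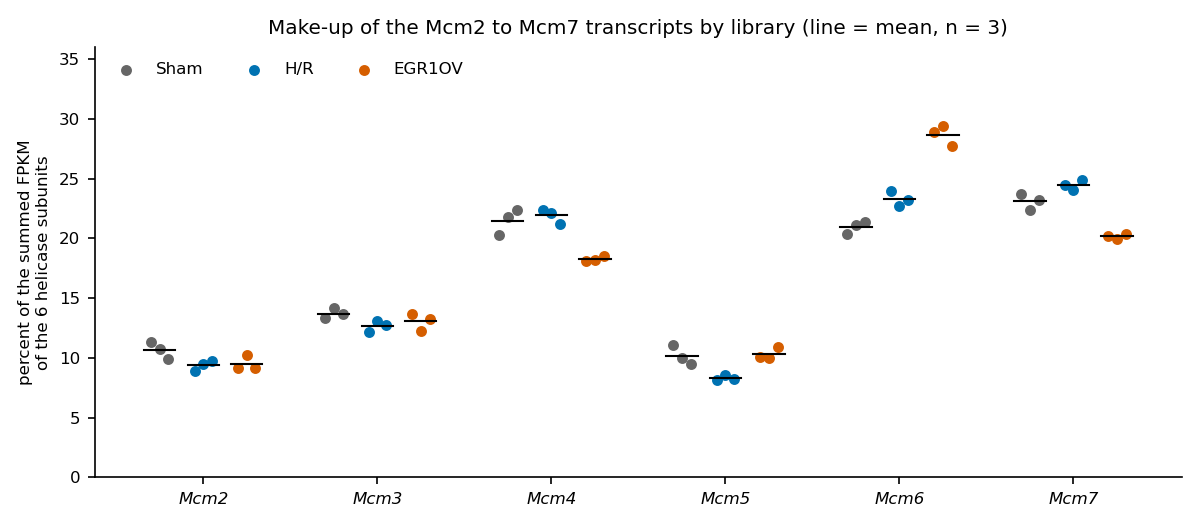
Percent of the summed FPKM of Mcm2 to Mcm7 taken by each subunit (vertical axis from 0) in each of the 9 libraries, with the mean of each group as a line (n = 3). The Mcm6 points of EGR1OV lie at 27.8 to 29.4%, above those of H/R at 22.7 to 24.0% and of Sham at 20.4 to 21.4%.

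Other steps of licensing and replication were read from lists of genes grouped by function. The origin recognition complex, which marks origins and is the platform for Cdc6 and Cdt1, had 0 of 7 genes called in any of the 3 comparisons by limma, with 1, 2 and 2 at an unadjusted p under 0.05; voom on recovered reads called 0, 1 and 1. The changes in H/R against Sham were -0.10 for Orc1, -0.03 for Orc2, -0.04 for Orc3, 0.02 for Orc4, -0.01 for Orc5, -0.11 for Orc6 and -0.14 for Lrwd1. Orc1, the E2F-responsive subunit, had changes of 0.24 in EGR1OV against Sham (limma adjusted p = 0.0502) and 0.34 against H/R (limma adjusted p = 0.0106). Of the regulators of Cdt1 and Cdc6, 0 of 8 were called in any comparison by limma or by voom, with 1, 3 and 3 at an unadjusted limma p under 0.05. Among them Gmnn had the lowest change in H/R against Sham, -0.33 (limma adjusted p = 0.0578). Of 4 tested Mcm paralogues and partners, Mcm8, which acts in recombination repair, was called lower in H/R, from 1.65 ± 0.173 to 1.09 ± 0.0326 FPKM (change -0.34, limma adjusted p = 0.0206). Of all genes, 1.6% were called higher and 2.65% lower in H/R against Sham, and 9.87% higher and 6.51% lower in EGR1OV against Sham. In EGR1OV against H/R 11.9% were called higher. At these shares, 0 calls in lists this small do not set them apart from other genes.

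The next lists hold genes that act after licensing, in origin firing, fork protection, DNA synthesis and mitosis. Of 12 origin firing genes 4 were called lower in H/R against Sham. They were the GINS subunits Gins2 (-0.38), Gins1 (-0.36) and Gins4 (-0.32) and the replisome factor Donson (-0.32), with a list median of -0.21. Of 3 fork protection genes 2 were called lower, the checkpoint adaptor Clspn (-0.49) and Tipin (-0.30). Of 24 tested DNA synthesis genes 13 were called lower, with a list median of -0.28. They were led by the polymerase delta catalytic subunit Pold1 (-0.46) and the primase Prim1 (-0.46). The single-strand binding protein Rpa1 (-0.40) and the ribonucleotide reductase subunit Rrm2 (-0.40) came next. Of 20 genes of G2 and mitosis 11 were called lower, led by Bub1b, Ccnb2, Birc5 (each -0.36) and Mki67 (-0.34), with a list median of -0.29. Called or not, 11, 3, 23 and 20 genes of the 4 lists had a change below 0, where the median of all genes was -0.03. None of the genes in these 4 lists was called higher in H/R. Beside these, 1.6% of all genes were called higher and 2.65% lower; under median-ratio scaling the lower calls in the 4 lists numbered 2, 1, 8 and 9, and without the libraries of high Gm23935 limma called 0, with 4, 1, 14 and 11 genes at an unadjusted p under 0.05.

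In EGR1OV against Sham the same 4 lists had 0 genes called in either direction by limma (4, 0, 8 and 2 at an unadjusted p under 0.05), and voom called 1 origin firing gene, with limma list medians of -0.02, -0.07, 0.02 and 0.02. Against H/R, 2 of 12 origin firing genes were called higher (Recql4, 0.52, and Gins2, 0.43), as were 1 of 3 fork protection genes (Clspn, 0.42), 6 of 24 DNA synthesis genes (among them Pold1, 0.61, Pola2, 0.56, Prim1, 0.51, and Lig1, 0.42) and 5 of 20 genes of G2 and mitosis (among them Plk1, 0.64, Bub1b, 0.47, Ccnb2, 0.46, and Aurkb, 0.45). Of all genes, 11.9% were called higher in this comparison. Quantile normalization left 1, 0, 3 and 1 of these calls.

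Of 13 E2f and retinoblastoma family genes, 1 was called in H/R against Sham, where 2.65% of all genes were called lower. This was E2f1, an activator of S phase genes. It fell from 3.55 ± 0.201 to 2.102 ± 0.371 FPKM (SD, n = 3), a change of -0.56 (limma adjusted p = 0.00664). In EGR1OV it was at 4.13 ± 0.347 FPKM, a change of 0.17 against Sham (limma adjusted p = 0.153) and of 0.73 against H/R. The latter was called, where 11.9% of all genes were called higher. Rb1, which holds E2F factors in check, was the only gene of this list called in EGR1OV against Sham, where it fell from 8.42 ± 0.195 to 4.69 ± 0.108 FPKM, a change of -0.73 (limma adjusted p = 2.5e-06). That is 1 of 13 genes, near the 6.51% of all genes called lower. In H/R Rb1 was at 8.79 ± 0.637 FPKM (change 0.05, limma adjusted p = 0.528). Rb1 was also called lower in EGR1OV against H/R, at -0.78 (limma adjusted p = 1.4e-06). Without the libraries of high Gm23935 the changes were -0.75 for E2f1 in H/R (limma adjusted p = 0.106) and -0.74 for Rb1 in EGR1OV (limma adjusted p = 0.000809), both against Sham, and -0.41 for Mcm8 in H/R (limma adjusted p = 0.207).

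**Figure D4:**
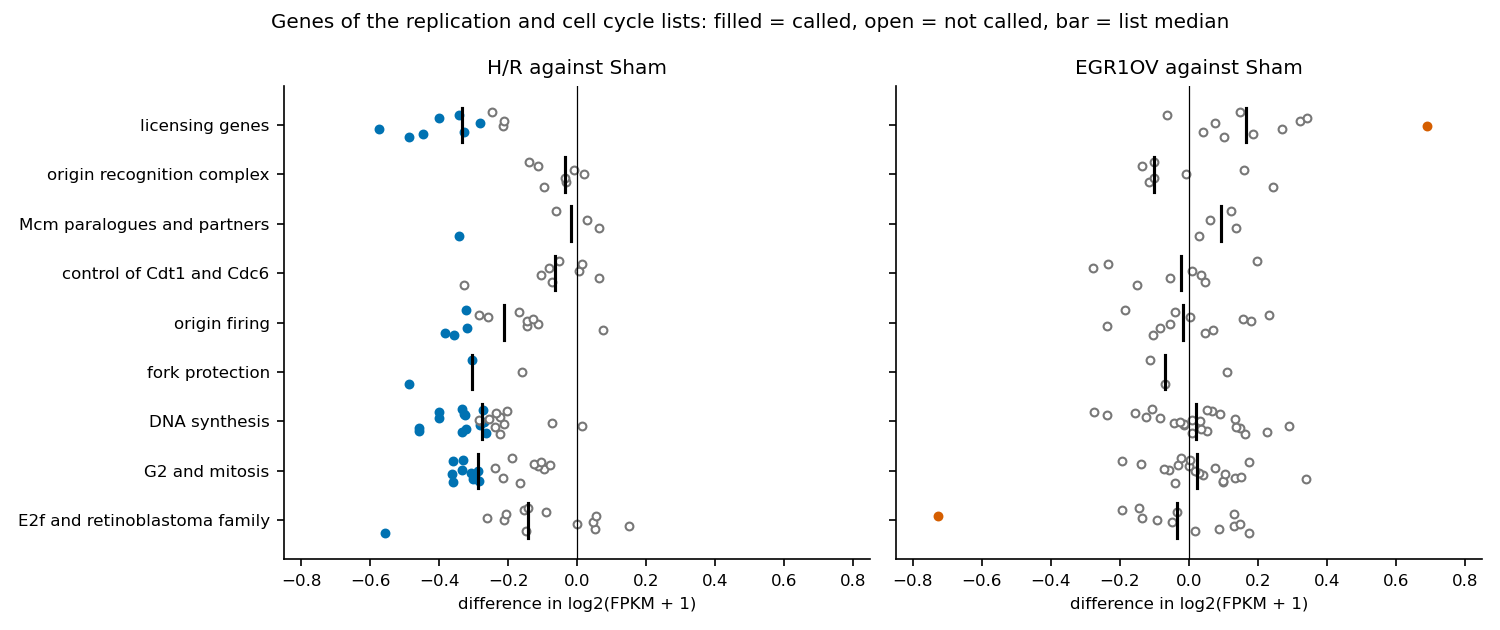
Change on the log2(FPKM + 1) scale (horizontal axis) of every tested gene in the licensing genes and 8 further lists, in H/R against Sham (left) and EGR1OV against Sham (right). Filled points were called, open points were not, and bars are list medians; in H/R the filled points lie below 0, and in EGR1OV the only filled points are Mcm6 above 0 and Rb1 below 0.

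Within the 10 genes, likeness was described by Pearson's r over the 9 libraries between each gene and the mean of the other 9 genes, which rests on the 3 groups as much as on single libraries. It was 0.974 for Mcm7, 0.971 for Mcm3, 0.959 for Mcm5, 0.940 for Mcm4, 0.939 for Cdt1, 0.918 for Mcm10, 0.916 for Mcm2, 0.861 for Cdc45, 0.846 for Mcm6 and 0.760 for Cdc6. Mcm6 and Cdc6 were the genes least like the rest, with Cdc45 close to Mcm6. In EGR1OV the mean of Mcm6 was 1.65 times Sham and that of Cdc6 0.929 times Sham. Mcm4 and Mcm7, with higher r, were at 1.03 and 1.06 times Sham. What lowered r for Mcm6 and Cdc6 was not tested. Among 7582 genes outside the 10 with a mean of at least 5 FPKM, those most like the mean of the licensing genes were Aaas (r = 0.988), Hist1h1c (0.985), Lig1 (0.982), Cdk1 (0.977), Cpne2 (0.976), Akr1e1 (0.974), Nup205 (0.974), Cct7 (0.974), Cuta (0.974) and Cpt1a (0.974). Lig1 is the ligase that joins Okazaki fragments, Cdk1 the kinase of mitotic entry and Hist1h1c a linker histone. Aaas and Nup205 are proteins of the nuclear pore. Only Lig1 and Cdk1 of these 10 genes were in the replication and cell cycle lists used here. Aaas stood at 31.8 ± 0.519 FPKM (SD, n = 3) in Sham, at 25.3 ± 0.679 in H/R and at 35.4 ± 0.754 in EGR1OV.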

How the data were processed

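Mouse primary renal tubular epithelial cells were profiled by RNA-Seq in 9 libraries, 3 each of Sham, H/R and EGR1OV, with groups taken from the labels. The authors deposited a table of FPKM per gene and library, without pooling. The submitters' processing notes name HISAT2 2.1.0, Bowtie2 2.2.3, TopHat2 and the build mm9, with no roles. However, GENCODE M21 (GRCm38) held 99.8% of the gene identifiers, and 94.6% of positions in the table equalled its own. Depth came from the steps of low values with exon lengths of GENCODE M21, and 94.0% of 162893 values of 1 to 1000 reads were whole within 0.02 reads.

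Values were fitted as log2(FPKM + 1) with limma 3.58.1 in R 4.3.3 (lmFit, eBayes with trend, group as the only term, all 9 libraries) after a filter of 0.5 FPKM on the mean over libraries. Tests were two-sided with Benjamini-Hochberg adjustment over all 13985 genes. Calls needed both an adjusted p under 0.05 and a fold change, of 1.2-fold for H/R against Sham, or of 1.3-fold for both comparisons of EGR1OV. The fold change was taken on the log2(FPKM + 1) scale. The thresholds against Sham follow the study, and the threshold between EGR1OV and H/R was set for this work. Comparisons against Sham share the Sham libraries.

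The members and gene lists were chosen with earlier results of these data known. All 10 licensing genes, the origin recognition genes, up to 4 called genes of each other list by size of change, and the 10 genes most like the licensing genes were named. Regulators of Cdt1 and Cdc6 were Gmnn, Dtl, Skp2, Fbxo31, Cul4a, Cul4b, Ddb1 and Fzr1. The fit was tested on simulated data. Replicate pairs differed by more than sampling noise, so none was merged. Alternatives were a pseudocount of 0.1, other filters, median-ratio scaling, quantile normalization, a replicate block, no trend, only the 2 groups compared, no fold threshold and each library left out. A voom fit of the recovered reads, a Gm23935 covariate and a fit without 4 libraries were chosen after seeing the data. Python 3.11.15 (numpy 2.4.6, pandas 2.3.3, scipy 1.17.1, matplotlib 3.10.9) was used. Promoter windows came from RefSeq (GRCm38.p6).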

Additional observations from a re-analysis of the deposited data

How the results depend on the processing

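Every licensing gene tested was lower in H/R than in Sham and higher in EGR1OV than in H/R under each alternative run. That covers all 10 genes except at a mean of at least 5 FPKM, where 6 were tested. Other filters, no trend, a replicate block, only the 2 groups compared and no fold threshold leave each log2 change as it was. So does leaving out a library of the group not compared. A sign could turn only in the remaining alternatives. For H/R against Sham, the median change of the 10 genes was -0.44 with a pseudocount of 0.1, -0.47 with voom on recovered reads and -0.26 without the 4 libraries of high Gm23935. Without those libraries 0 licensing genes and 9 genes in all were called, with 2 residual degrees of freedom. Genes called in all numbered 594, and 372 with a mean of at least 5 FPKM, 1635 with no fold threshold and 995 with voom. Leaving out each library in turn gave 6 to 7 licensing genes called, 449 to 580 genes in all and medians of -0.39 to -0.28.

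For EGR1OV against Sham, 3 licensing genes were called with a pseudocount of 0.1, 3 with voom, 5 with no fold threshold and 2 without the 4 libraries, and 1 to 3 with each library left out (3 without Sham replicate 3, when Mcm10 and Cdt1 were added). Genes called in all numbered 2291, and 1315 at 5 FPKM, 6417 with no fold threshold and 2227 to 2361 with a library left out. The median was 0.08 (0.077) under quantile normalization and 0.13 to 0.23 with a library left out, with 0.23 without EGR1OV replicate 2. Changes of sign were -0.0057 for Mcm2, -0.063 for Mcm4 and -0.022 for Mcm7 under quantile normalization, -0.019 for Mcm4 without Sham replicate 1 (-0.019 to 0.082 over the left-out libraries), and for Cdc6 0.036 without Sham replicate 3 (-0.12 to 0.036 over the left-out libraries) and 0.074 without the 4 libraries.

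For EGR1OV against H/R, 4 of 6 tested licensing genes were called at 5 FPKM, where 4 members were removed by the filter, and 6 to 9 with a library left out. Genes called in all numbered 2641, and 1520 at 5 FPKM, 7135 with no fold threshold and 2570 to 2687 with a library left out. The median was 0.68 with a pseudocount of 0.1, 0.46 under quantile normalization, 0.69 with voom and 0.54 to 0.59 with a library left out.

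Rescaling moved the direction of all calls: 37.7% of H/R calls were higher as deposited, 58.2% under median-ratio scaling and 56.5% under quantile normalization. For EGR1OV the shares were 60.3%, 54.9% and 45.9% against Sham, and 63.2%, 51% and 42.5% against H/R. Equal replicate numbers did not pair the samples (correlations of -0.0206 to 0.0618 over 9 pairs, and 3 of 9 libraries closest to their own number). With the replicate number as a block, 6, 1 and 7 licensing genes and 516, 2309 and 2654 genes in all were called in the 3 comparisons. The cause of these differences was not tested. Depth limits Mcm10, Cdc6, Cdt1 and Cdc45 most, each with at most 268 reads per library.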
